A study of Mus musculus with 60 samples.

Results

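The genes described here are 8 aminotransferases that use vitamin B6 as their cofactor: Got1, Got2, Gpt, Gpt2, Bcat1, Bcat2, Oat and Aadat. They were chosen by gene symbol and not by a cut on their measured levels, though earlier results of these data were known. All 8 were found among the 21999 genes of the deposited tables. RNA was sequenced from the prefrontal cortex (PFC), striatum and hippocampus of 20 mice, with 1 library from each region of each mouse and 60 libraries in all. Wild-type (WT) mice and mice labelled as knockouts (KO) of Glo1, the gene of the methylglyoxal-detoxifying enzyme glyoxalase 1, were given pellets with 1.4 mg of vitamin B6 per 100 g (normal diet) or with 5 µg per 100 g (lacking diet) during weeks 8 to 12 of life. Each genotype received each diet in 5 mice, which gives 12 groups of 5 libraries. The labels give every KO library batch number 1 and every WT library batch number 2, so that genotype and batch cannot be told apart, while each comparison of diets within a genotype lies inside 1 batch number. The labels do not give strain, sex or how the Glo1 allele was made.

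Aminotransferases move an amino group from an amino acid to a keto acid, and they carry it on pyridoxal phosphate, the active form of vitamin B6. Most of the enzymes described here use glutamate and 2-oxoglutarate as one pair of partners, which ties them to glutamate, the main excitatory transmitter of the brain. Several come as a cytosolic and a mitochondrial isozyme encoded by separate genes: Got1 and Got2 for aspartate, Gpt and Gpt2 for alanine, and Bcat1 and Bcat2 for the branched-chain amino acids, with the cytosolic form named first in each pair.

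The library totals lay between 7640047 and 13928265 counts, and RNA integrity numbers lay between 7.6 and 9.3. Glo1 had at most 10 counts in any KO library and at least 299 in any WT library, which matches the genotype labels. The labels give a mean vitamin B6 level of 64.2 ng/µl in WT and 67.1 ng/µl in KO mice on the normal diet, against 3.88 and 3.72 ng/µl on the lacking diet, without naming the material measured. Marker genes of the striatum (Drd1, Drd2 and Ppp1r1b) and of the cortex (Tbr1) were highest in the region they mark, as were the hippocampal markers Prox1 and Fibcd1, while Wfs1, also listed as a hippocampal marker, was not (11.7 RPKM there and 18.5 RPKM in the striatum). The choroid plexus markers Ttr, Folr1 and Kl together ranged from 5.18 to 1217 RPKM between hippocampal libraries and did not exceed 5.56 RPKM in the other regions.

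The promoters of 3 members are shown because Got1 was the most abundant member and Bcat1 and Gpt2 had the largest differences between regions. Each run is the 250 bases before the annotated transcription start from RefSeq (GRCm38.p6, the same build as mm10), written 5′ to 3′ on the strand of the gene. Capitals mark matches on either strand to the CCAAT box, to the GC box (written GGGCGG) or to the TATA box (written TATAAA), motifs that were picked after the sequences had been seen.
Got1 (chr19:43524606-43524855, minus strand): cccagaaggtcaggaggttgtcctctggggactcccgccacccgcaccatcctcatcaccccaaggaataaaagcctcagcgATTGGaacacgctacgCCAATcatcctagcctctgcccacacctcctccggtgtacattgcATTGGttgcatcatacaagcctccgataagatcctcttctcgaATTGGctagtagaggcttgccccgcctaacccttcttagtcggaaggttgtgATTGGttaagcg
Gpt2 (chr8:85492326-85492575, plus strand): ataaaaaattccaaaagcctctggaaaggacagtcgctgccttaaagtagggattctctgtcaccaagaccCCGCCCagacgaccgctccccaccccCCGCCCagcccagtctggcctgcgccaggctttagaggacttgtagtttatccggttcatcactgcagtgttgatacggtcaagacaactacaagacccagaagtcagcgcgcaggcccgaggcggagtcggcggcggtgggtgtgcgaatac
Bcat1 (chr6:145076158-145076407, minus strand, the upstream of its 2 annotated starts): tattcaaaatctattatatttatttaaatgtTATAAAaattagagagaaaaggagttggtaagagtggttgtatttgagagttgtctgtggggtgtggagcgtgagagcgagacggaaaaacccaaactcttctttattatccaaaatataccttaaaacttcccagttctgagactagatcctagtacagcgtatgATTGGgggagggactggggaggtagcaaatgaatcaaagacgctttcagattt
The Got1 window held 5 matches to CCAAT or its reverse complement ATTGG. Of 32851 mouse promoter windows of the same length, 33.8% held at least 1 such match and 2.79% held 3 or more. The Gpt2 window held 2 matches to CCGCCC, the reverse complement of GGGCGG, a motif that 32.7% of all windows held on either strand, and it contained 16 CpG dinucleotides against a median of 6 over all windows. The Bcat1 window held 1 TATAAA, which 12.4% of windows held on either strand, 1 ATTGG and 5 CpG dinucleotides. RefSeq windows were matched for 7 of the 8 members, and Gpt had none. These matches describe letters only. All 8 members are protein-coding genes. In the same annotation Got1 lies at chr19:43499752-43524605, Got2 at chr8:95864133-95888401, Gpt at chr15:76696726-76699675 and Gpt2 at chr8:85492576-85528902. Bcat1 lies at chr6:144993835-145076157, Bcat2 at chr7:45568967-45589710, Oat at chr7:132557475-132576398 and Aadat at chr8:60505843-60545677. None of the members is on chromosome 17, which carries Glo1.

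**Figure D1:**
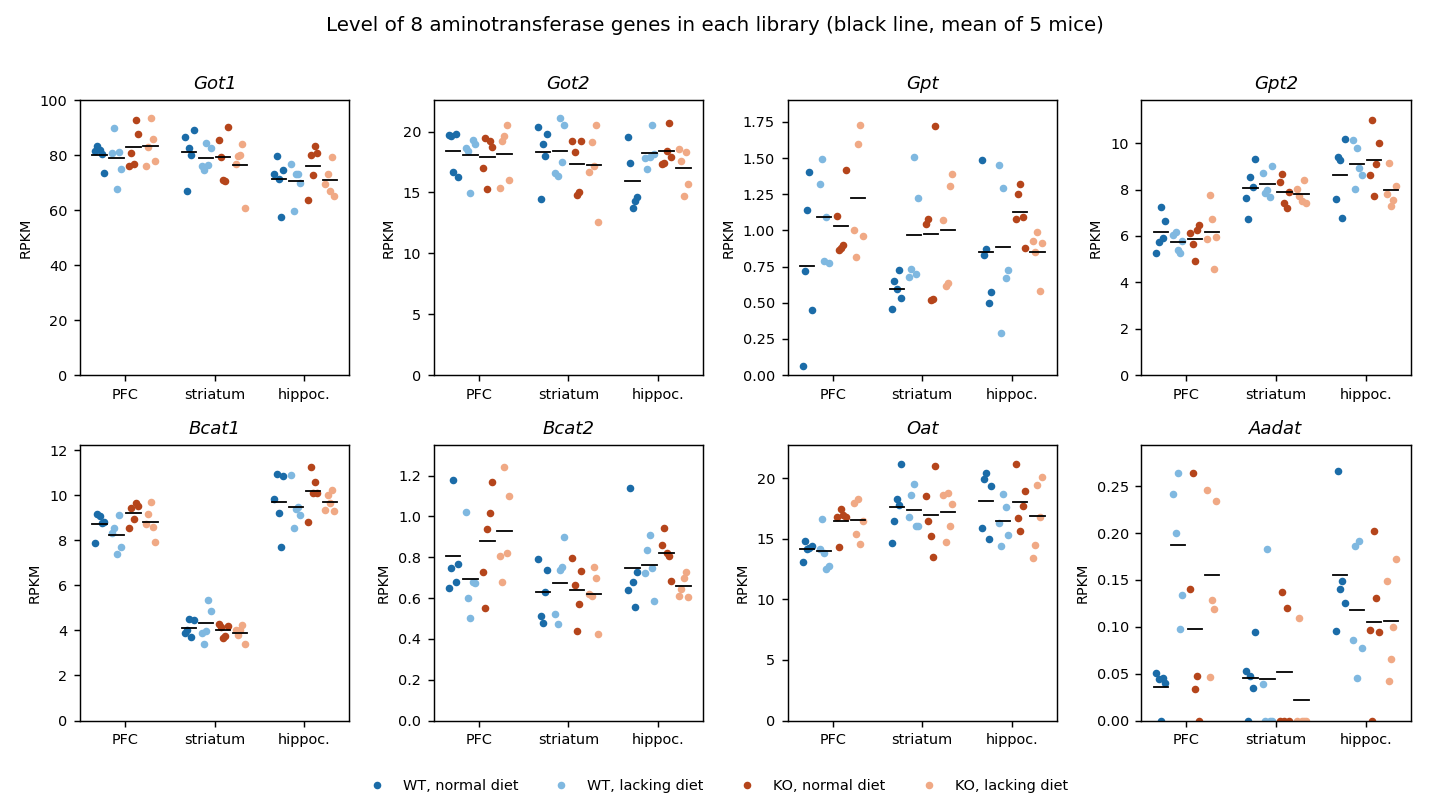
Level of each of the 8 genes in every library, in RPKM (counts scaled to gene length in kilobases and to the library total), by region on the horizontal axis and by genotype and diet in colour; black lines are means of 5 mice. Bcat1 was 3.39 to 5.35 RPKM in the striatum and at least 7.39 RPKM in every library of the other regions, while the genotype and diet groups compared within a region overlapped for 7 of the 8 genes.

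Got1, the cytosolic aspartate aminotransferase, was by far the most abundant member. Its mean level was 81.4 RPKM ± 6.50 (SD, n = 20) in the PFC, 79.0 ± 7.52 in the striatum and 72.3 ± 6.96 in the hippocampus. It made up 61.8%, 61.8% and 56.7% of the summed RPKM of the 8 genes in these regions. Its lowest library, at 57.6 RPKM, lay above the highest library of any other member. Next came a pair of mitochondrial enzymes, Got2 at 17.4 to 18.1 RPKM and Oat at 15.3 to 17.4 RPKM over the region means. In the striatum and the hippocampus these could not be ranked, because Got2 was the higher of the pair in only 11 of 20 libraries of each region, whereas in the PFC it was higher in 17 of 20.

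The order of the following pair depended on the region. Bcat1, the cytosolic branched-chain aminotransferase, stood above Gpt2, the mitochondrial alanine aminotransferase, in 20 of 20 PFC libraries and 18 of 20 hippocampal libraries. In the striatum Gpt2 was the higher in 20 of 20 libraries, at 8.01 RPKM against 4.08 RPKM for Bcat1.

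Gpt and Bcat2 were near 1 RPKM, at region means of 0.885 to 1.03 RPKM and 0.642 to 0.828 RPKM, and their libraries overlapped in each region. These levels came from few reads, with 1 to 39 counts of Gpt and 15 to 59 counts of Bcat2 per library. Aadat, which encodes the mitochondrial kynurenine and aminoadipate aminotransferase, was the lowest member, with 132 counts in all 60 libraries together and 0 in 14 of them. A count of 0 allows up to 3 counts, or 0.215 to 0.393 CPM (counts scaled to library totals, without length) over these libraries, counting error only. It fell below the minimum for testing, which left 7 members in the tests of the following paragraphs.

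Differences between regions were tested over the 4 genotype and diet groups with edgeR's quasi-likelihood test, and a gene is called where its p, adjusted over all 13930 genes tested, is under 0.05. PFC and striatum differed for 4 of 7 members, against 69.9% of all genes tested. PFC and hippocampus differed for 5 of 7 members (background 59.3%), and striatum and hippocampus for 3 of 7 (background 66.4%). With only 7 members, the share lay above that of all genes for PFC against hippocampus and below it in the other comparisons. The median log2 fold change of the 7 members was 0.02, 0.12 and 0.02 in these comparisons, against -0.014, -0.0068 and 0.0051 over all genes tested. Of the called genes, 48.6%, 49.1% and 50.5% were higher in the region named first; with libraries scaled by their totals, without the TMM factors that correct for composition, these shares were 51.2%, 38.6% and 38.8%, and the medians were 0.0084, -0.066 and -0.077. In bulk tissue, fewer cells of a type and less RNA per cell cannot be told apart.

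**Figure D2:**
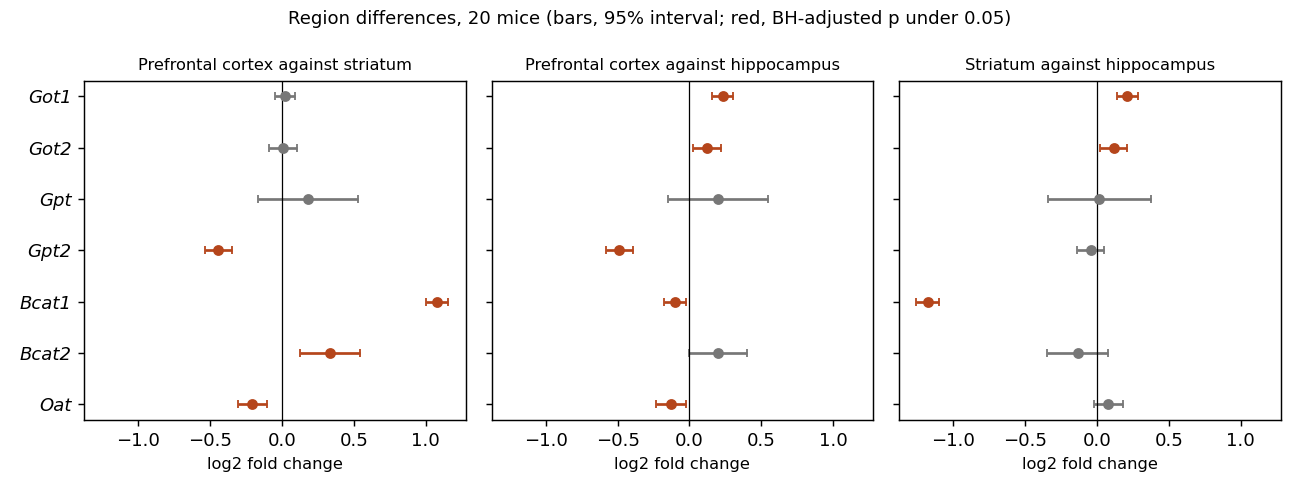
Log2 fold change between regions for the 7 tested members, with 95% intervals, each from 20 against 20 libraries of the same mice; red points have a BH-adjusted p under 0.05. Bcat1 stands at 1.08 for PFC against striatum and at -1.18 for striatum against hippocampus, and the next largest value is -0.49 for Gpt2 in PFC against hippocampus.

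The aspartate aminotransferases work with the malate dehydrogenases to carry reducing equivalents between cytosol and mitochondria. Got1 was lowest in the hippocampus. It ranged from 67.6 through a median of 81.1 to 93.7 RPKM in the PFC, from 60.8 through 80.0 to 90.2 RPKM in the striatum, and from 57.6 through 73.1 to 83.3 RPKM in the hippocampus. The ranges overlapped widely, but the hippocampus was below the PFC in 18 of 20 mice. The log2 fold change was 0.23 (SE 0.036, adjusted p = 1.66e-07) for PFC against hippocampus and 0.21 (SE 0.036, adjusted p = 9.41e-07) for striatum against hippocampus. For PFC against striatum it was 0.02, with a 95% interval of -0.05 to 0.09.

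Got2 ranged from 15.0 to 20.6 RPKM in the PFC, from 12.6 to 21.1 RPKM in the striatum and from 13.7 to 20.7 RPKM in the hippocampus. Its log2 fold change was 0.12 (SE 0.048) for both PFC and striatum against hippocampus, with adjusted p-values of 0.0251 and 0.0284. The order was not the same in every group. WT mice on the normal diet had means of 18.4, 18.3 and 15.9 RPKM in PFC, striatum and hippocampus, and in these mice alone the log2 fold changes were 0.27 and 0.27. KO mice on the normal diet had 17.9, 17.3 and 18.4 RPKM, with the hippocampus highest. On the lacking diet the means were 18.1, 18.4 and 18.3 RPKM in WT mice and 18.2, 17.2 and 17.0 RPKM in KO mice. Both calls were lost without TMM factors (0.063 and 0.037), with limma on log2(RPKM + 1) (0.060 and 0.030) and with the RNA integrity number as a covariate (0.10 and 0.099). They were also lost without single mice: the first without mouse 268, 286 or 325 (0.10 to 0.11), and the second without mouse 241, 259, 267, 268, 283, 286, 317, 325, 339 or 390 (0.098 to 0.11). Of its 75-base stretches, 19.3% also occur in other annotated genes, among them the pseudogene Got2-ps1, and how the deposited counts assign such reads is not given in the sources used here. The ratio of Got1 to Got2 in RPKM within a library had geometric means of 4.49 in the PFC, 4.45 in the striatum and 4.16 in the hippocampus. This ratio does not depend on library scaling, but it rests on the gene lengths used, 2539 bases for Got1 and 4824 for Got2. Over all 60 libraries, Got1 had 127786 counts and Got2 had 55577.

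The alanine aminotransferase Gpt2 was lowest in the PFC. Its libraries ranged from 4.59 through a median of 5.92 to 7.77 RPKM there, from 6.73 through 7.95 to 9.32 RPKM in the striatum, and from 6.79 through 8.79 to 10.99 RPKM in the hippocampus. The PFC was below the striatum in 19 of 20 mice and below the hippocampus in 20 of 20. The log2 fold change was -0.44 (SE 0.047, adjusted p = 7.97e-13) against the striatum and -0.49 (SE 0.046, adjusted p = 4.45e-14) against the hippocampus. Striatum against hippocampus gave -0.04 with a 95% interval of -0.14 to 0.05, and it was -0.13 (adjusted p = 0.0286) without TMM factors.

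Oligodendrocyte markers were also low in the PFC, with 5 of 5 lower there than in either other region. Their summed level ranged from 257.9 to 509.9 RPKM in the PFC, from 823.8 to 1104 RPKM in the striatum and from 591 to 1022 RPKM in the hippocampus. Between striatum and hippocampus the order was not shared. The mean of the summed markers was 989.1 RPKM in the striatum and 788.4 RPKM in the hippocampus, while Gpt2 averaged 8.01 and 8.76 RPKM. The part of these markers in the Gpt2 result was not tested. The cytosolic Gpt showed no called difference between regions, with 95% intervals that reached from -0.34 to 0.54 on the log2 scale over the 3 comparisons. In RPKM, Gpt2 exceeded Gpt by a geometric mean of 6.67-fold in the PFC, 9.78-fold in the striatum and 10.02-fold in the hippocampus. Single libraries lay between 2.66-fold and 83.1-fold.

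The cytosolic branched-chain aminotransferase Bcat1 had the largest regional difference of the members. Its libraries ranged from 7.39 through a median of 8.78 to 9.71 RPKM in the PFC, from 3.39 through 4.01 to 5.35 RPKM in the striatum, and from 7.69 through 9.74 to 11.2 RPKM in the hippocampus. Every striatal library lay below every library of the other regions. The log2 fold change was 1.08 (SE 0.039, adjusted p = 3.56e-33) for PFC against striatum and -1.18 (SE 0.039, adjusted p = 3.38e-35) for striatum against hippocampus, or 2.11-fold and 0.442-fold. The PFC was a little lower than the hippocampus (-0.10, SE 0.038, adjusted p = 0.0209), and lower in 17 of 20 mice. Over WT mice on the normal diet only, this small difference was -0.087 and not called.

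Markers of glutamatergic neurons were also low in the striatum, with 2 of 2 lower there than in either other region. Slc17a7, the vesicular glutamate transporter of cortical and hippocampal projection neurons, averaged 115 RPKM in the PFC, 13.6 RPKM in the striatum and 86.0 RPKM in the hippocampus, and the summed level of the pair did not exceed 34.7 RPKM in any striatal library or fall under 51.5 RPKM in any other. Markers of GABAergic neurons went the other way, with 3 of 3 higher in the striatum than in either region and none at 0 in any library. Their part in the Bcat1 difference was not tested.

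The mitochondrial Bcat2 ranged from 0.501 to 1.24 RPKM in the PFC, from 0.422 to 0.897 RPKM in the striatum and from 0.555 to 1.14 RPKM in the hippocampus. It was higher in the PFC than in the striatum, by 0.33 on the log2 scale (SE 0.104, adjusted p = 0.00377), in 14 of 20 mice, a call that was lost over WT mice on the normal diet only (0.345). PFC against hippocampus (0.20, 95% interval -0.01 to 0.40) and striatum against hippocampus (-0.13, 95% interval -0.34 to 0.08) did not pass the threshold, although the first did without mouse 268 (0.24) or mouse 273 (0.25). An antisense transcript, 0610005C13Rik, covers 15.9% of the exonic bases of Bcat2, and whether the counting used strand is not given in the sources used here. The ratio of Bcat1 to Bcat2 in RPKM had geometric means of 10.9 in the PFC, 6.46 in the striatum and 13.2 in the hippocampus. It was lower in the striatum than in the hippocampus of the same mouse in 20 of 20 mice.

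**Figure D3:**
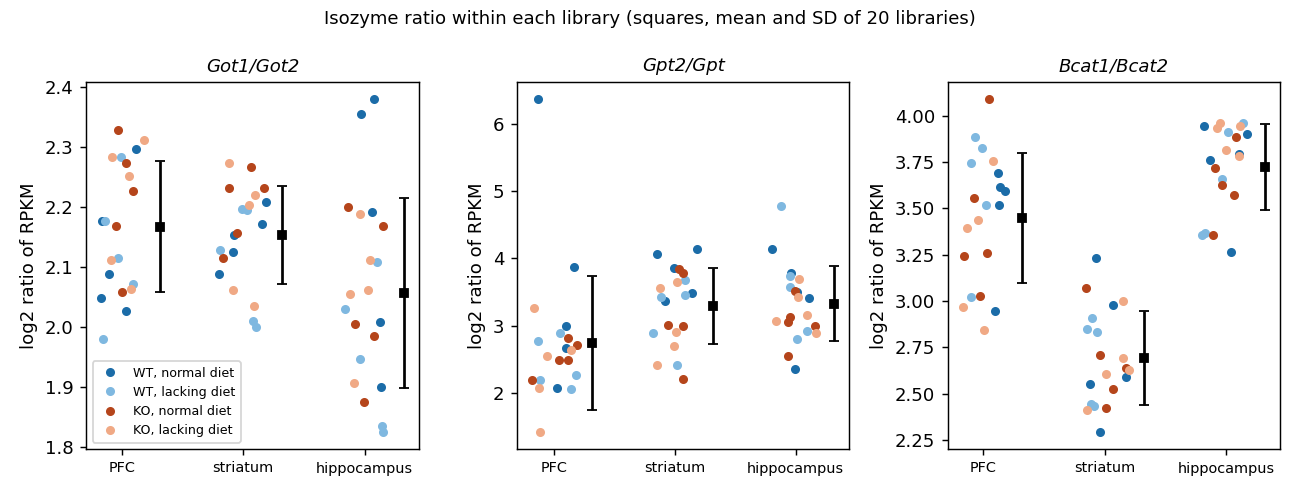
Log2 ratio of the 2 isozymes of a pair within each library, by region; squares and bars are the mean and SD of 20 libraries, and the vertical axes differ between pairs. The Bcat1 to Bcat2 ratio is lowest in the striatum, and 1 PFC library with a single count of Gpt stands apart at 83.1-fold in the Gpt2 to Gpt panel.

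Oat, which turns ornithine into glutamate semialdehyde in mitochondria, was lowest in the PFC. It ranged from 12.5 through a median of 14.7 to 18.3 RPKM there, from 13.5 through 17.3 to 21.2 RPKM in the striatum and from 13.4 through 17.2 to 21.2 RPKM in the hippocampus. The PFC was below the striatum in 17 of 20 mice (log2 fold change -0.21, SE 0.051, adjusted p = 0.000309) and below the hippocampus in 16 of 20 (-0.13, SE 0.051, adjusted p = 0.027). The second of these calls was lost when 1 of 5 mice (246, 267, 283, 339 or 452) was left out, at -0.12 to -0.11. In WT mice the mean was 14.1 RPKM in the PFC against 17.5 RPKM in the striatum and 17.3 RPKM in the hippocampus, and in KO mice it was 16.5 RPKM against 17.1 and 17.4 RPKM.

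Aadat averaged 0.119 RPKM in the PFC, 0.0409 RPKM in the striatum and 0.121 RPKM in the hippocampus. The counts behind these means were 59, 18 and 55, and 11 of the 14 libraries at 0 were striatal. With no minimum count, edgeR put Aadat higher in the PFC than in the striatum by 1.38 on the log2 scale (SE 0.46, adjusted p = 0.00804) and lower in the striatum than in the hippocampus (-1.505, SE 0.43, adjusted p = 0.00208). The first difference was not seen in WT mice on the normal diet, with 4 counts in the PFC and 5 in the striatum over 5 libraries each (0.0361 and 0.0458 RPKM), while the other 3 groups had higher means in the PFC.

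The study asked how loss of Glo1 and a shortage of vitamin B6 act alone and together. For the 7 tested members, edgeR called 0 in any of the 8 genotype, diet and interaction comparisons of each region. The background was low as well. Between KO and WT mice on the normal diet, 0.121% of tested genes were called in the PFC, 0.0601% in the striatum and 0.0299% in the hippocampus. On the lacking diet the shares were 0.234%, 0.128% and 0.0672%. Over both diets these shares were 0.673%, 0.203% and 0.164%. Where KO and the lacking diet were combined and set against WT on the normal diet, they were 0.28%, 0.0826% and 0.0149%. The diet comparisons (within each genotype and over both) and the test of interaction gave 0% in every region. At an unadjusted p under 0.05, at most 1 of the 7 members passed in any of these comparisons, against 1.68% to 14.1% of all genes tested. DESeq2 also called 0 members in each comparison.

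**Figure D4:**
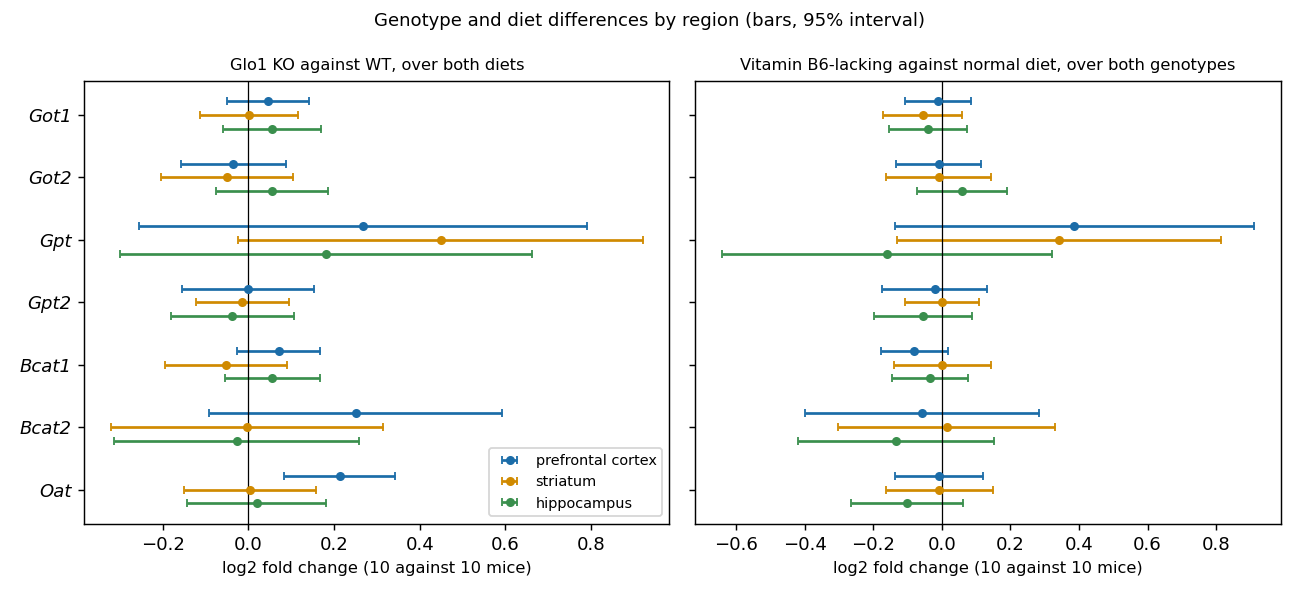
Log2 fold change of KO against WT over both diets (left) and of the lacking against the normal diet over both genotypes (right), 10 against 10 mice, with 95% intervals by region; the horizontal scales differ. The intervals of Gpt and Bcat2 are wide, and Oat in the PFC is the only point in the left panel whose interval lies wholly above 0, without passing the threshold after adjustment.

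The intervals show how large an unseen difference between the groups could be. For KO against WT that difference holds genotype and batch number together, because these cannot be told apart. For the 5 abundant members (Got1, Got2, Gpt2, Bcat1 and Oat), the 95% intervals of the diet effect over both genotypes lay between 0.832-fold and 1.14-fold in the 3 regions, and those of the KO effect over both diets between 0.868-fold and 1.27-fold. For Gpt and Bcat2, which had few counts, they lay between 0.641-fold and 1.88-fold for diet and between 0.80-fold and 1.89-fold for KO. Comparisons within 1 diet or 1 genotype had wider intervals. For KO on the normal diet they lay between 0.816-fold and 1.31-fold for the abundant members and between 0.762-fold and 2.76-fold for Gpt and Bcat2. For diet in WT mice they lay between 0.766-fold and 1.29-fold and between 0.614-fold and 2.54-fold. The intervals of the interaction lay between 0.70-fold and 1.38-fold and between 0.335-fold and 1.96-fold. The intervals are those of single genes and were not widened for their number. Data were also simulated with the same spread for all genes, and only genes above a minimum mean count were changed. The recovery rates therefore need not hold for a single member, least of all for Gpt and Bcat2. In these simulated data, the PFC comparison of KO and WT on the normal diet recovered 62% of genes changed 1.5-fold and 100% of genes changed 2-fold. Over both diets it recovered 100% of genes changed 1.5-fold. Of genes with the smallest change simulated, whose median fitted log2 fold change was 0.32 and 0.31, it recovered 8% and 40%. Of the 140 and 184 genes called on the normal diet and over both diets, 5 and 14 had not been changed. The Oat difference described next, at 0.21, is smaller than any change simulated, so these rates do not give its recovery.

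Oat in the PFC came nearest to the threshold. WT mice on the normal diet had 13.1, 14.8, 14.2, 14.2 and 14.4 RPKM, and KO mice on this diet had 16.8, 14.3, 17.5, 16.9 and 16.8 RPKM. On the lacking diet WT mice had 14.1, 16.6, 13.8, 12.5 and 12.8 RPKM, and KO mice had 17.98, 15.4, 18.3, 14.6 and 16.5 RPKM. KO libraries were mostly higher on either diet, but the groups overlapped: 1 KO mouse on the normal diet lay within the WT range, as did 3 on the lacking diet.

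Over both diets the log2 fold change of Oat was 0.21 (SE 0.063), with an unadjusted p of 0.0022 and an adjusted p of 0.11. Of all genes tested in that comparison, 14.1% had an unadjusted p under 0.05. The log2 fold change of Oat was 0.21 on each diet separately (adjusted p = 0.881 on the normal and 0.327 on the lacking diet). Without mouse 226, the WT mouse at 16.6 RPKM, the effect over both diets was 0.25 with an adjusted p of 0.0271, in a fit that called 390 genes in place of 89. The diet effect on Oat in the PFC was -0.0098 in WT and -0.0071 in KO mice. The KO effect was 0.0034 in the striatum and 0.02 in the hippocampus. The difference of the KO effect between regions was tested in the fit of all libraries and missed the threshold, at 0.21 (adjusted p = 0.54) for PFC against striatum, where 0% of genes passed, and 0.20 (adjusted p = 0.835) for PFC against hippocampus, where 0.00718% passed. The same tests gave 0 calls among the 7 members for striatum against hippocampus (background 0%) and for the diet effect in each pair of regions (background 0%).

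**Figure D5:**
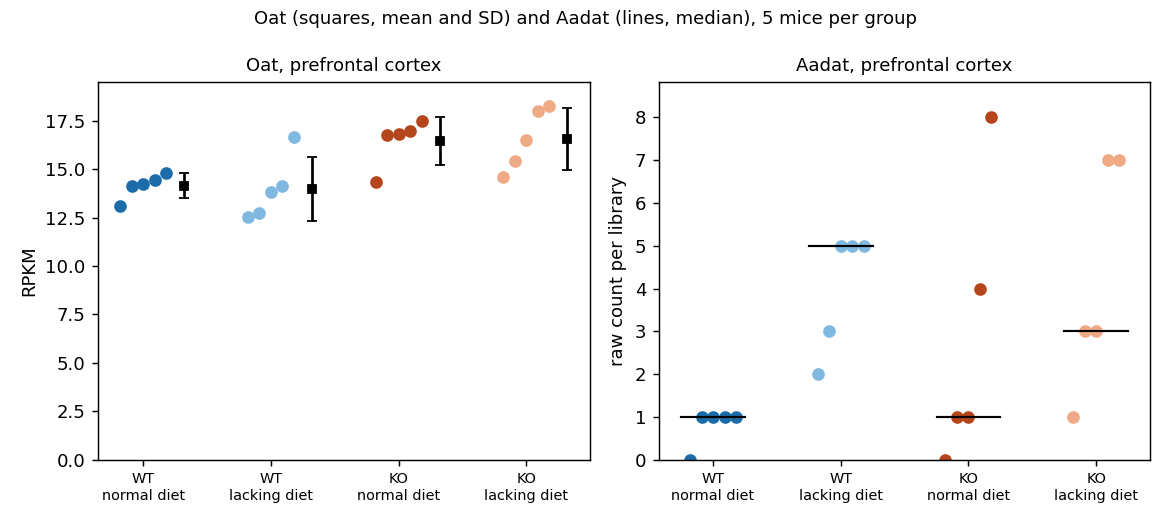
Oat in RPKM (left; squares and bars, mean and SD) and raw counts of Aadat (right; lines, median) in the PFC, 5 mice per group. KO groups have higher Oat means than WT groups on both diets with overlapping points, and Aadat has 0 or 1 count in WT mice on the normal diet and 2 to 5 in WT mice on the lacking diet.

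Gpt in the striatum had the largest fitted genotype difference. WT mice on the normal diet had 0.458, 0.65, 0.592, 0.726 and 0.53 RPKM, while KO mice on this diet had 1.045, 1.08, 0.52, 0.524 and 1.72 RPKM. The WT mice lay close together and the KO mice spread over them and beyond. The log2 fold change was 0.77 (SE 0.338), with an unadjusted p of 0.0327 and an adjusted p of 1. On the lacking diet WT mice had 0.678, 0.736, 1.505, 0.699 and 1.22 RPKM and KO mice 1.07, 0.615, 0.637, 1.31 and 1.39 RPKM, so that these groups overlapped throughout. The combination of KO and lacking diet gave 0.79 against the same WT group (SE 0.335, adjusted p = 0.914), and the diet effect in WT mice was 0.66 (SE 0.333, adjusted p = 1). The lowest group rested on 7 to 17 counts per library.

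Among the 5 abundant members, Got2 in the hippocampus had the lowest unadjusted p-values after Oat. WT mice on the normal diet had 19.6, 17.4, 13.7, 14.3 and 14.6 RPKM, and the lowest 3 of these were below every library of the other hippocampal groups. WT mice on the lacking diet had 17.8, 16.9, 17.9, 20.5 and 18.2 RPKM. The diet effect in WT mice was 0.19 (SE 0.090, adjusted p = 0.965), the KO effect on the normal diet was 0.18 (SE 0.090, adjusted p = 0.653) and the interaction was -0.25 (SE 0.127, adjusted p = 0.528).

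Aadat in the PFC was the only case, among 8 members and 5 comparisons of 2 groups in each region, of groups that did not overlap. In the PFC, WT mice on the normal diet had 1, 1, 0, 1 and 1 counts and WT mice on the lacking diet had 5, 5, 5, 2 and 3 counts. Neither RPKM nor counts overlapped, and 0.355% of the 13223 tested genes had groups that did not overlap in this comparison, with Aadat itself outside the tested genes. In the other comparisons 0 members had groups that did not overlap. The share of tested genes that did so was 1.07% in the PFC, 0.436% in the striatum and 0.896% in the hippocampus for KO against WT on the normal diet, and 1.75%, 0.984% and 1.42% on the lacking diet. For diet it was 0.676% and 0.448% in striatum and hippocampus of WT mice, and 0.839%, 0.21% and 2.58% over the 3 regions in KO mice. For the combination of KO and lacking diet it was 3.01%, 0.729% and 0.866%. KO mice had 4, 8, 1, 1 and 0 counts on the normal diet and 7, 1, 3, 3 and 7 on the lacking diet, and these overlapped each other. Without a minimum count, edgeR gave 2.22 (SE 0.79) for the diet effect in WT mice, with an unadjusted p of 0.00801 and an adjusted p of 1.

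Other genes of the same pathways were followed in lists of related aminotransferases, malate-aspartate shuttle partners, glutamate and glutamine enzymes, branched-chain breakdown, ornithine and proline enzymes, kynurenine and lysine enzymes and vitamin B6 salvage. Of 50 symbols, 44 were in the table and 36 could be tested between regions. Between PFC and striatum 9 were higher and 13 lower, between PFC and hippocampus 11 were higher and 14 lower, and between striatum and hippocampus 13 were higher and 12 lower. Of all genes tested, 69.9%, 59.3% and 66.4% were called in these comparisons.

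Of the malate-aspartate shuttle partners, 2 of 5 were higher and 1 lower in the PFC than in the striatum (69.9% of all genes called), 1 was higher and 1 lower in the PFC than in the hippocampus (59.3%), and 3 were higher and 1 lower in the striatum than in the hippocampus (66.4%). Mdh1, the cytosolic malate dehydrogenase, was lowest in the hippocampus as Got1 was, at 148, 148 and 135 RPKM in PFC, striatum and hippocampus (0.19, SE 0.032, adjusted p = 4.79e-07 for PFC against hippocampus, and 0.22 for striatum against hippocampus). Mdh2, its mitochondrial counterpart, had 30.6, 26.9 and 30.8 RPKM (0.17, SE 0.058, adjusted p = 0.00819 for PFC against striatum). Slc25a13, an aspartate-glutamate carrier of the mitochondrial membrane, had 0.477, 1.26 and 0.713 RPKM, with -1.43 for PFC against striatum, and it was called in each comparison.

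Abat, the aminotransferase that breaks down GABA, averaged 28.8 RPKM in the PFC, 68.4 in the striatum and 31.5 in the hippocampus (log2 fold change -1.27, SE 0.034, adjusted p = 4.99e-40 for PFC against striatum), and the summed GABAergic markers had 103.5, 302.3 and 111.1 RPKM; their part in this was not tested. Gls2, a glutaminase, had 3.64, 2.09 and 2.23 RPKM (0.78 for PFC against striatum). Kyat3, a kynurenine aminotransferase, had 0.395, 0.868 and 0.475 RPKM (-1.17), and its relative Kyat1 had 1.14, 1.64 and 1.62 RPKM, lower in the PFC than in the hippocampus by a log2 fold change of -0.45. Ppm1k, the phosphatase that activates the branched-chain keto acid dehydrogenase downstream of Bcat1 and Bcat2, had 35.2, 21.9 and 26.0 RPKM (0.66, SE 0.057, adjusted p = 6.55e-16). Bckdhb, a subunit of that dehydrogenase, and Ivd, the next enzyme of leucine breakdown, were lowest in the PFC and highest in the hippocampus, at 6.51, 8.33 and 10.1 RPKM and at 5.22, 6.36 and 9.31 RPKM, and each of their 3 comparisons passed the threshold. Dbt, another subunit, had the same order, and its log2 fold change was -0.25 for striatum against hippocampus.

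The genes beside Oat and Aadat showed larger regional steps. Arg2, the mitochondrial arginase that makes the ornithine used by Oat, averaged 0.69, 10.5 and 1.69 RPKM in PFC, striatum and hippocampus (-3.95, SE 0.123, adjusted p = 9.58e-37 for PFC against striatum). Ido1, which opens the kynurenine pathway upstream of Aadat, averaged 0.152, 22.7 and 0.0772 RPKM (-7.36, SE 0.143, adjusted p = 3.07e-47), and Tdo2, which catalyses the same step, averaged 0.221, 0.0718 and 2.22 RPKM. Aadat had its lowest mean in the striatum, where Ido1 had its highest. Pdxk, the kinase that makes pyridoxal phosphate, averaged 23.5, 33.7 and 19.5 RPKM (-0.54, SE 0.034, adjusted p = 6.8e-22 for PFC against striatum). Among the proline enzymes, Pycrl had 1.79, 1.34 and 1.84 RPKM (0.40, adjusted p = 0.0116 for PFC against striatum), and Pycr1 had 0.222, 0.261 and 0.135 RPKM (0.80, adjusted p = 0.0019 for PFC and 1.06 for striatum against hippocampus). The calls of Mdh2, Pycrl and Pycr1 were lost over WT mice on the normal diet only.

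In the genotype, diet and interaction comparisons, listed genes passed the threshold in 1 comparison only, KO against WT over both diets in the PFC, where 2 of 35 were lower. Of all 13223 genes tested there, 0.673% were called, 73 of the 89 lower in KO mice. Etnppl, a B6-dependent phospho-lyase of phosphoethanolamine related in sequence to the aminotransferases, ranged from 3.19 through a median of 4.28 to 7.81 RPKM in WT mice and from 2.27 through 2.998 to 4.25 RPKM in KO mice (-0.61, SE 0.135, adjusted p = 0.0246). Glul, the glutamine synthetase of astrocytes, ranged from 640.8 through 828.7 to 875.7 RPKM in WT mice and from 626.1 through 688.5 to 807.2 RPKM in KO mice (-0.25, SE 0.057, adjusted p = 0.0335). The genotypes overlapped for both genes. The call of Etnppl was lost without mouse 225, 246, 259, 317, 339, 368 or 381 (-0.60 to -0.54) and that of Glul without mouse 225, 241, 242, 246, 259, 272, 317, 325, 339, 368, 381 or 390 (-0.25 to -0.22), and both were lost with limma on log2(RPKM + 1), at adjusted p = 0.0992 and 0.101.

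Of 6 astrocyte markers in that comparison 1, Slc1a3, was lower (-0.33, adjusted p = 0.00678), and the 6 log2 fold changes lay between -0.33 and -0.07. Other lists also had values below 0: those of 4 of 4 general neuronal markers lay between -0.31 and -0.04, those of 3 of 3 GABAergic markers between -0.09 and -0.06 and those of 4 of 4 cortical markers between -0.17 and -0.0086, with 0 passing the threshold. The glutamatergic markers Slc17a7 and Slc17a6 lay above 0, at 0.20 and 0.02. Further lists held values on both sides of 0. These were the oligodendrocyte (-0.17 to 0.06), endothelial (-0.17 to 0.24), striatal (-0.06 to 0.99) and hippocampal markers (-0.10 to 0.09), again with 0 passing. The summed level of the astrocyte markers ranged from 888.6 to 1146 RPKM in WT and from 818.1 to 1020 RPKM in KO mice. Of 4 microglial markers 1, P2ry12, was lower in KO mice (-0.38, adjusted p = 0.0172), while Cx3cr1 had -0.18, Csf1r -0.02 and Aif1 0.14. The part of these markers in the results for Etnppl, Glul and Oat was not tested.

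The members differed in their spread between replicates. The coefficient of variation within a group of 5 mice had medians of 6.74% to 12.8% over the regions for the 5 abundant members, 31.4% to 37.5% for Gpt and 13.8% to 27.1% for Bcat2. Within groups, Got1 and Got2 went up and down together (Pearson r = 0.662 over 60 libraries after subtraction of group means), at 0.926 in the striatum, 0.639 in the PFC and 0.38 in the hippocampus. The value for Got2 and Oat was -0.332 over all libraries. These values are descriptions over libraries that share mice, library scaling and RNA quality.

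Across all 60 libraries, the genes most like each member in log2 CPM were sought among 13929 others. Bcat1 was most like Ptpn3 (r = 0.979), Sphkap (0.977) and Cdk14 (0.977), each of which was low in the striatum, with Ptpn3 at 12.4, 2.03 and 14.7 RPKM in PFC, striatum and hippocampus. Got1 was most like Pld3 (0.909), Pcdhgc5 (0.891) and Cry2 (0.887). Got2 was most like Dlg4 (0.807), Sh3bgrl3 (0.807) and Grik5 (0.804). Gpt2 was most like Cdk5rap2 (0.88), Fyco1 (0.873) and Dtna (0.863), which were lowest in the PFC as Gpt2 was.

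Oat was most like Amd1 (0.722), the enzyme that supplies the aminopropyl donor of polyamine synthesis, Oxct1 (0.698) and Capn2 (0.697). The members with few counts had weaker neighbours, with Zfpm1 (0.649), Cptp (0.627) and Ggt7 (0.626) for Bcat2 and Pnpla6 (0.573), Dhx16 (0.563) and Limk2 (0.539) for Gpt. Aadat was not compared. The libraries behind these values share mice, regions and scaling.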

How the data were processed

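Poly(A)-selected RNA from 3 brain regions of 20 mice had been read as single 75-base reads. The authors deposited whole-number read counts per gene and RPKM values for the same 60 libraries, and 0 value columns were left unmatched to a sample. Per the submitters' processing notes the tools were STAR 2.7.1a and HTSeq 0.9.1 and the build was mm10; their settings, the annotation and the use of strand are not given in the sources used here. The deposited RPKM equals the count divided by gene length and column total, and was used for levels. Orders of genes by level and ratios between genes therefore rest on the gene lengths used. Counts were used for tests.

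Counts were fitted in R 4.3.3 with edgeR 4.0.16 (TMM, filterByExpr at a count of 10 and a total of 15, quasi-likelihood F-tests, two-sided), each region on its 20 libraries for genotype and diet, and all 60 libraries for regions, with 1 mean per group. P-values were adjusted by the Benjamini-Hochberg method over all genes of a comparison, at a threshold of 0.05, and standard errors came from the F statistics. DESeq2 1.42.0, limma 3.58.1 on log2(RPKM + 1) and log2(RPKM + 0.1) computed from the deposited values, scaling by totals, other filters, the RNA integrity number as a covariate, other sample sets, the mouse as a block and leaving out each mouse were alternatives. The same 20 mice gave every region; deviations from group means correlated by 0.0469 on average between regions of a mouse and by -0.0111 between different mice of a group. The edgeR fit was tested on simulated data.

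All 8 members are named. Listed pathway genes are named where they passed the threshold for genotype, diet or interaction, and up to 2 per list and region comparison by size; the 3 genes most correlated with each member over 60 libraries are named as most like it. Some genes that this rule or the marker lists would name are not reported here. Members and lists were chosen with earlier results of these data known. Overlaps between genes and shared 75-base stretches came from the annotation and transcripts of the mm10 build, and the positions from RefSeq (GRCm38.p6). Mice are separate animals, so that n counts mice.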

Additional observations from a re-analysis of the deposited data

Results flagged for a closer look

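In 96 groups of 5 libraries (8 genes in 12 groups), 6 had a library whose gap to its nearest neighbour was large against the range of the group. For normally distributed values, chance alone marks about 1 group in 20. That rate does not hold for the low and tied counts of Aadat. In the PFC, Got2 was 14.96 RPKM in WT mouse 241 on the lacking diet against 18.45 to 19.3 RPKM in the others of its group, and Bcat2 was 1.179 RPKM in WT mouse 283 on the normal diet against 0.6514 to 0.7669 RPKM. Oat was 14.32 RPKM in KO mouse 268 on the normal diet, where the others had 16.77 to 17.47 RPKM. That library had 13911503 counts in all, 470 of them from Oat, and an RNA integrity number of 8.8. The other 3 were values of Aadat that rest on 0 to 5 counts: 0 RPKM in the PFC of WT mouse 283 on the normal diet, 0.1831 RPKM in the striatum of WT mouse 241 on the lacking diet, and 0.1097 RPKM in the striatum of KO mouse 244 on the lacking diet.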

How the results depend on the processing

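For the 30 genotype, diet, interaction and region-difference-of-effect comparisons, 237 of 237 alternative fits gave 0 called members, as did 599 of 600 fits that left out a mouse; the exception was KO against WT over both diets in the PFC, where the number of called members ranged from 0 to 1 over the left-out mice. The count of all called genes in that comparison was 89, and it was 230 with DESeq2, 189 with the RNA integrity number as a covariate and 46 to 390 over the left-out mice. In the 12 comparisons of KO with WT groups over the regions, DESeq2 called 8 to 230 genes and edgeR 2 to 89. The counts of called members between regions were 3 to 5 for PFC against striatum, 4 to 6 for PFC against hippocampus and 2 to 4 for striatum against hippocampus. These are counts of the 7 tested members, or of all 8 in the fit with no minimum count. That fit also called Aadat for PFC against striatum and for striatum against hippocampus, where it gave the highest counts. Bcat1 (PFC against striatum and striatum against hippocampus), Gpt2 and Oat (PFC against striatum), Gpt2 (PFC against hippocampus) and Got1 (either region against hippocampus) kept their direction and call in every alternative run for them. With the contrast over WT mice on the normal diet only, the calls of Bcat2 for PFC against striatum (0.345) and Bcat1 for PFC against hippocampus (-0.087) were lost. With the mouse as a replicate block, the block changed no call of a member between regions, at 4, 5 and 3 called, or in a region difference of an effect. Uncalled values near 0 changed sign: Gpt for striatum against hippocampus became -0.065 without TMM factors, -0.039 and -0.078 with limma at the pseudocounts 1 and 0.1, -0.030 with the RNA integrity number, -0.42 in WT mice on the normal diet, -0.014 with the replicate block, and -0.079 to 0.10 over the left-out mice. Oat for striatum against hippocampus became -0.0036 without TMM factors and -0.0033 and -0.0034 with limma. In WT mice on the normal diet, Got1 (-0.027) and Got2 (-0.0022) for PFC against striatum and Gpt for PFC against hippocampus (-0.096) changed sign, and Got2 for PFC against striatum ranged from -0.015 to 0.028 over the left-out mice. The cause of these shifts was not tested. Gpt, Bcat2 and Aadat had medians of 17, 30 and 2 counts per library; the part of depth in their missing calls was not tested.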
